A study of Homo sapiens with 6 samples.

Results

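The keratin gene family was taken as every gene symbol in the count tables made of KRT, a number and at most 1 further letter. The rule selected 55 of 26484 genes. It leaves out the keratin-associated proteins, and the pseudogene KRT42P, which the pattern also matched among 56 symbols and which had 0 counts, was set aside. Gene expression had been measured by RNA sequencing in MCF10CA1a cells. This human line is a malignant descendant of the MCF10A breast epithelial cells, and all 6 libraries come from it. The cells grew on stiff gels of 8000 Pa or on soft gels of 500 Pa, with 3 biological replicates at each stiffness. Both groups were plated on commercial hydrogel dishes to which growth factor-reduced Matrigel, a basement membrane extract, had been coupled at 0.14 mg/ml. Both grew in DMEM/F12 with horse serum, HEPES and bicarbonate, with penicillin, streptomycin and fungizone added at plating. RNA was extracted with TRIzol on day 5, a day after fresh medium had been given on day 4. It is labelled as cytosolic RNA. The labels name no other treatment and do not say whether replicates that share a number shared a day.

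Keratins are the intermediate filament proteins of epithelial cells. A filament is built from obligate pairs of a type I (acidic) and a type II (basic to neutral) keratin, and it is tied to desmosomes at cell junctions and to hemidesmosomes at the basement membrane, so that the network carries mechanical load across the sheet. Which pairs a cell makes marks its kind: KRT8 with KRT18 in simple and glandular epithelium, KRT5 with KRT14 in the basal layer of stratified epithelium and in mammary myoepithelial cells, KRT6 forms with KRT16 in wounded or hyperproliferative epidermis, KRT4 with KRT13 in mucosal suprabasal layers, and the hair keratins in the hair shaft. In the breast, luminal cells are known for KRT7, KRT8, KRT18 and KRT19 and basal cells for KRT5, KRT14 and KRT17.

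The 55 members lie in the pair of keratin clusters of the human genome (GRCh38, GENCODE 29 annotation). On chromosome 12, 27 members occupy chr12:52168996-52952901, which holds all 26 type II genes and the type I gene KRT18. On chromosome 17, the other 28 type I genes occupy chr17:40654665-41624842. By class the members were 4 simple, 4 basal, 3 stress, 14 suprabasal and 26 hair or inner root sheath keratins, and 4 others (KRT6C, KRT20, KRT23 and KRT222).

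Library totals ran from 9068926 to 10739449 counts at 8000 Pa and from 8305601 to 18779742 counts at 500 Pa, so that 3 counts equalled 0.168 to 0.429 counts per 1000000 (CPM, here scaled by TMM, which corrects for differences in library composition). The first principal component of the expressed genes held 49.1% of the variance and did not follow stiffness: 8000 Pa replicate 1 lay at -62.3, while 8000 Pa replicate 3 and 500 Pa replicate 3 lay at 35.4 and 47.8. The same libraries differed in how their values followed gene GC content, with a rank correlation across genes of -0.78 for 8000 Pa replicate 1, 0.69 for 8000 Pa replicate 3 and 0.55 for 500 Pa replicate 3. The tested keratins had a median transcript GC content of 58.2%, against 49.0% for all tested genes. Values without 8000 Pa replicate 1 or without 500 Pa replicate 3, the libraries at the ends of the first principal component, are given beside the keratin results. The libraries are bulk RNA, in which fewer cells of a type and less RNA per cell cannot be told apart.

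Of the 55 keratins, 19 had enough counts to be tested and 36 did not. The 36 comprised 20 genes with 0 counts in every library and 16 genes with a total of 1 to 116 counts over the 6 libraries. The keratins at 0 in every library included the epidermal suprabasal KRT1, the intestinal KRT20 and the corneal KRT12. Of the 14 suprabasal genes 9 were untested, and of the 26 hair genes 24 were. KRT23 had the most counts of the untested genes, 116 in all, followed by the hair keratins KRT32 with 51, KRT85 with 44 and KRT83 with 37. The tested set is defined by its level, so it stands for the keratins these cells express and not for the family.

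Ordered by CPM per kilobase of transcript, a scale on which genes of different length can be compared, the simple pair and KRT15 stood at the head. KRT8 (type II) had 5163 ± 1837 CPM per kb at 8000 Pa and 6410 ± 2056 CPM per kb at 500 Pa (SD, n = 3 each). KRT15 (type I) followed with 3447 ± 875 at 8000 Pa and 4414 ± 452 CPM per kb at 500 Pa on its 2394-base principal transcript. On its longer principal transcript of 5237 bases KRT15 would have 1576 at 8000 Pa and 2018 CPM per kb at 500 Pa, below KRT18 and KRT7 in place of above them. KRT18 had 2986 ± 1005 CPM per kb at 8000 Pa and 3766 ± 1221 at 500 Pa, and KRT7 had 2815 ± 1361 CPM per kb at 8000 Pa and 3648 ± 1192 at 500 Pa. KRT15, KRT18 and KRT7 overlapped one another at each stiffness. A second tier from KRT81 down to KRT5 followed, with means of 200.1 to 1109.5 CPM per kb at 8000 Pa and 304 to 1759.8 CPM per kb at 500 Pa. KRT14, the usual partner of KRT5, lay lower, at 52.1 ± 21.8 CPM per kb at 8000 Pa and 66.2 ± 25.9 at 500 Pa. KRT19 was level with KRT14 within the spread, at 51.2 ± 27.3 CPM per kb at 8000 Pa and 54.1 ± 18.5 at 500 Pa. KRT9, the keratin of palms and soles, was the lowest of the tested genes.

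**Figure D1:**
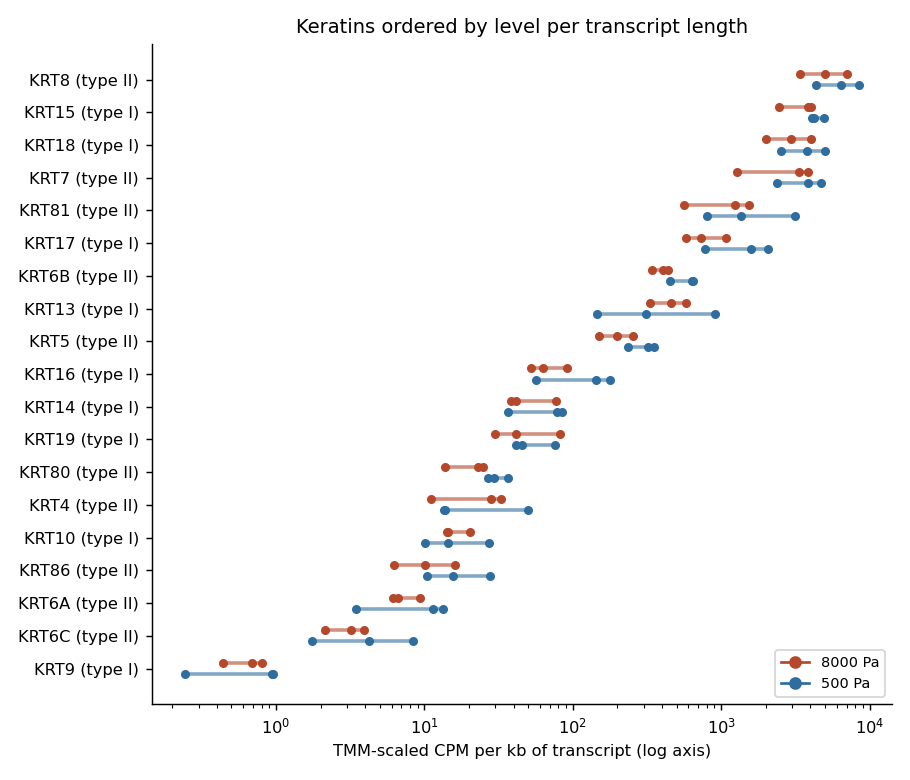
TMM-scaled CPM per kb of transcript (log axis) of the 19 tested keratins, ordered by their mean over the 6 libraries. Points are libraries and lines span the 3 libraries of a stiffness, 8000 Pa above 500 Pa; KRT8, KRT15, KRT18 and KRT7 lie at the top, and the lines of the 2 stiffnesses overlap for all genes except KRT15, KRT6B and KRT80.

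Several keratins share sequence with each other or with pseudogenes, and the sources used here do not give the counting rule for reads with several matches. The share of a gene's 50-base transcript words found in another gene was 53.6% for KRT6C, 47.1% for KRT6B, 43.7% for KRT81, 39.1% for KRT6A, 37.5% for KRT86 and 35.9% for KRT18. That share was 23.8% for KRT14, 20.3% for KRT13, 19.9% for KRT16, 16.2% for KRT8 and 12.2% for KRT17. KRT6A, KRT6B and KRT6C share mainly with each other, and KRT81 with KRT86. KRT14 and KRT16 share with each other and with pseudogenes of KRT16, and KRT17 with its pseudogenes. The values of these genes are uncertain to that extent. KRT18 and KRT8 also share 525 exonic bases on opposite strands, and since no strand setting is given, reads there cannot be assigned to either gene. KRT13 and KRT7 overlap antisense transcripts over 476 and 282 exonic bases.

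Keratin transcripts made up a few percent of each library. At 8000 Pa they took 2.53%, 3.70% and 3.85% of all counts in replicates 1, 2 and 3 (3.36% ± 0.725, SD, n = 3), against 3.76%, 3.47% and 4.70% at 500 Pa (3.98% ± 0.644, SD, n = 3). The lowest share was 8000 Pa replicate 1 and the highest 500 Pa replicate 3, and the groups overlapped. KRT8, KRT15, KRT7 and KRT18 together supplied between 75.3% and 84.1% of the keratin counts of a library, a share of reads that is not corrected for length.

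The make-up of the keratin counts overlapped between stiffnesses. Simple keratins were 52.9%, 56.0% and 58.3% of keratin counts at 8000 Pa and 52.9%, 54.5% and 54.4% at 500 Pa. Basal keratins were 34.4%, 30.6% and 29.4% at 8000 Pa and 34.2%, 36.0% and 28.2% at 500 Pa. Stress keratins held 3.35% ± 0.800 at 8000 Pa and 3.67% ± 0.611 at 500 Pa, and suprabasal keratins held 3.00% ± 0.573 at 8000 Pa and 2.15% ± 1.03 at 500 Pa (SD, n = 3 each). Type II keratins were 53.9% ± 3.02 of the keratin counts at 8000 Pa and 54.4% ± 2.22 at 500 Pa. In each of these classes the 2 groups overlapped.

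**Figure D2:**
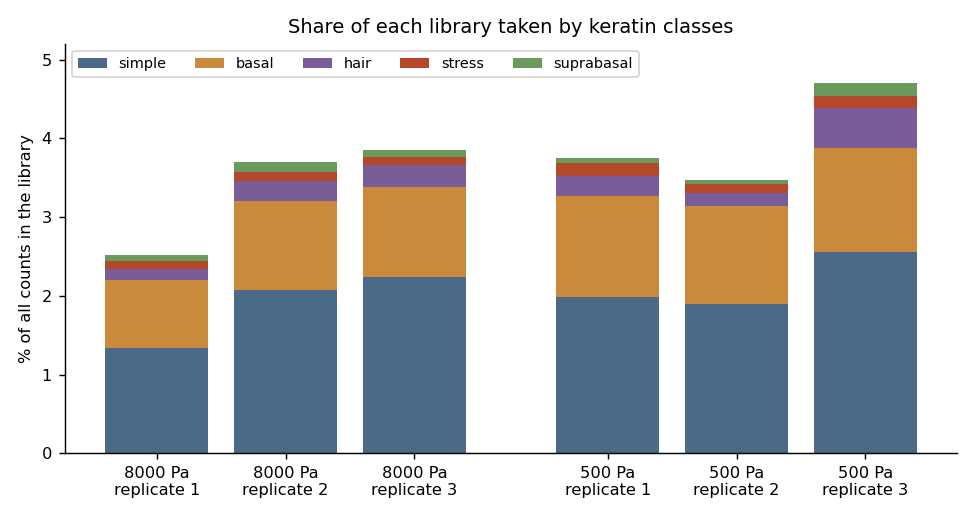
Percent of all counts in each library taken by 5 keratin classes, stacked, for the 3 libraries at 8000 Pa and the 3 at 500 Pa. The totals are 2.53%, 3.70% and 3.85% at 8000 Pa and 3.76%, 3.47% and 4.70% at 500 Pa, with simple and basal keratins forming most of every bar; the 4 other keratins are too scarce to be drawn.

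No keratin passed the test of 8000 Pa against 500 Pa. With edgeR's quasi-likelihood test, Benjamini-Hochberg adjusted and read at an FDR of 0.05, 0 of 19 keratins were called, against 0% of all 11517 tested genes (0 called), and each keratin had an adjusted p of 1.00. With the replicate number as a block, 0 of 19 keratins were called, against 0.53% of all tested genes. DESeq2 called 0 of 19 keratins, against 0.0608% of all tested genes (7 called), and limma-voom called 0 of 19, against 0% of all tested genes (0 called). At an unadjusted p under 0.05 the unpaired edgeR fit had 4 keratins lower at 8000 Pa (KRT17, KRT16, KRT5 and KRT6B), where the background was 0.981% of genes, and none higher. That count was 0 without 500 Pa replicate 1, without 8000 Pa replicate 1 or without 8000 Pa replicate 2, 2 without 500 Pa replicate 3 and 6 without 500 Pa replicate 2. It was 1 with scaling by library size alone, and 3 (KRT17, KRT5 and KRT80) with the GC correction, where the unadjusted edgeR p was 0.067 for KRT16 and 0.066 for KRT6B. The background of all tested genes, in either direction, was 669 of 11517 with the GC correction and 337 of 11517 with library size alone. Without 500 Pa replicates 1, 2 and 3 it was 171 of 11702, 662 of 11799 and 230 of 11887. Without 8000 Pa replicates 1 and 2 it was 309 of 11639 and 178 of 11777. With all 6 libraries unpaired it was 169 higher and 113 lower of 11517. The blocked edgeR fit had 7 keratins lower at an unadjusted p under 0.05, against a background of 6.12% of genes, and none higher. These were KRT17, KRT16, KRT5, KRT6B, KRT80, KRT81 and KRT86.

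The estimates lay on 1 side. All 19 tested keratins had a log2 fold change below 0 in the unpaired fit, against 48.8% of all tested genes, and 16 of 19 did in the blocked fit, against 50.6%. The number below 0 was 14 when libraries were scaled by size alone, a scaling that moved the median of all genes to 0.17, and 16 when gene GC content was corrected per library. The median log2 fold change of the 19 was -0.36 unpaired and -0.39 blocked, beside 0.0093 and -0.0059 for all tested genes, and it was -0.19 with the GC correction. The 19 genes were measured in the same 6 libraries and partly share sequence, so their values are not independent. Within same-numbered pairs the keratin medians were -0.92 in pair 1, 0.060 in pair 2 and -0.69 in pair 3, whereas the medians of all tested genes were 0.027, -0.017 and -0.020. The libraries of pair 2 lay at -6.32 (8000 Pa) and -11.8 (500 Pa) on the first principal component, and the difference between pairs was not tested. Without 500 Pa replicate 3 the keratin median was -0.091 with 12 of 19 below 0, and without 8000 Pa replicate 1 it was -0.28 with 16 below 0. Leaving out any other library moved the median further below 0. It was -0.42 without 500 Pa replicate 1, -0.55 without 500 Pa replicate 2, -0.55 without 8000 Pa replicate 2 and -0.60 without 8000 Pa replicate 3.

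Non-overlap between the groups was seen for 3 keratins. On TMM-scaled values KRT15, KRT6B and KRT80 were lower in all 3 libraries at 8000 Pa than in any at 500 Pa. These were 3 of 19 keratins, against 2.85% of all tested genes. No keratin was higher without overlap (0 of 19 against 4.02%). In same-numbered pairs, 6 of 19 keratins (KRT15, KRT17, KRT6B, KRT7, KRT80 and KRT86) were lower at 8000 Pa in 3 of 3 pairs, against 15.2% of all tested genes. None was higher in 3 of 3 pairs, against 14.6%.

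**Figure D3:**
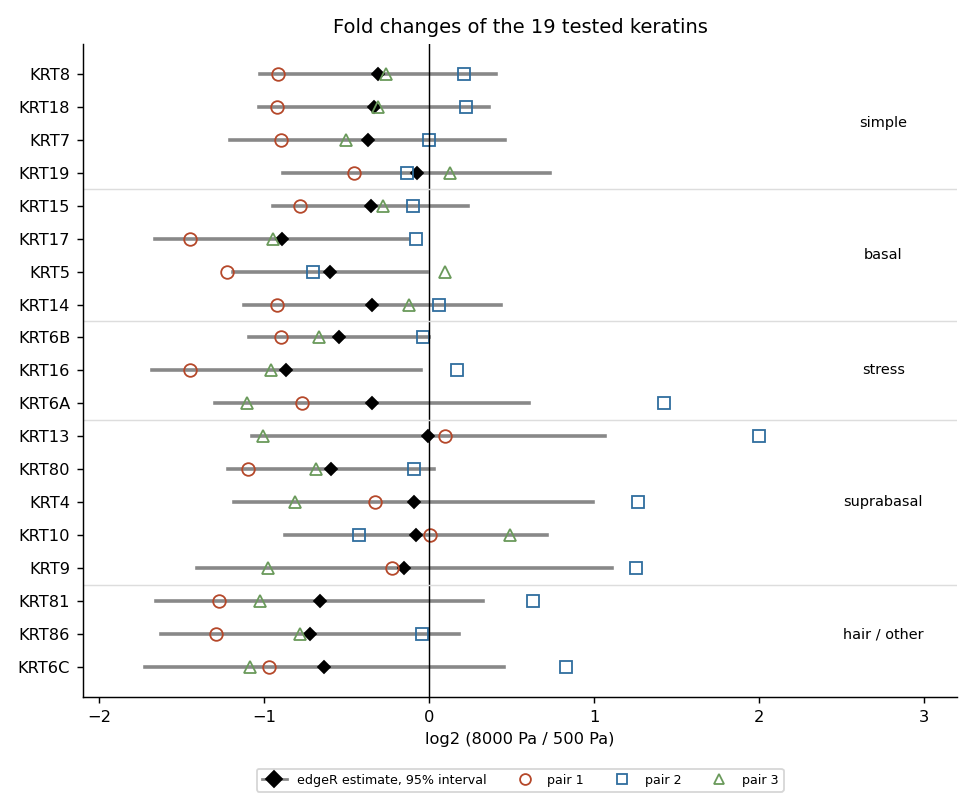
Log2 of 8000 Pa over 500 Pa for the 19 tested keratins by class: diamonds and bars are the unpaired edgeR estimate with its 95% interval, and open symbols are the same-numbered pairs. All 19 diamonds lie at or left of 0, the pair 2 squares lie right of most other symbols, and the intervals of KRT17, KRT16, KRT5 and KRT6B end just left of 0.

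Among the simple keratins, all 4 tested members had a value below 0 without passing the test. KRT8 (chr12:52897187-52949954), the type II member of the simple epithelial pair, had 5952, 8843 and 12388 CPM at 8000 Pa and 11255, 7637 and 14854 CPM at 500 Pa. The groups overlapped, with replicate 3 the highest library at each stiffness. Its log2 fold change was -0.31 ± 0.33 (SE), with a 95% interval from -1.03 to 0.40. KRT18 (chr12:52948871-52952901), its type I partner, had 2833, 4200.3 and 5687 CPM at 8000 Pa and 5372, 3603 and 7069.9 CPM at 500 Pa. It overlapped in the same order of libraries as KRT8, with a log2 fold change of -0.34 ± 0.32 (SE). KRT7 (chr12:52232520-52252186), a type II keratin of ducts and glands, had 2229, 6731 and 5855 CPM at 8000 Pa and 4161, 6733 and 8302 CPM at 500 Pa. The 8000 Pa replicate 1 library was below the other 5, and the log2 fold change was -0.37 ± 0.39 (SE). KRT19 (chr17:41523617-41528308), the smallest type I keratin, which lacks the usual tail domain, had 41.8, 57.8 and 114 CPM at 8000 Pa and 57.3, 63.5 and 105 CPM at 500 Pa. Its ranges nearly coincide, and its log2 fold change of -0.077 ± 0.37 (SE) turned above 0 with the GC correction and with scaling by library size alone. Without 8000 Pa replicate 1 the log2 fold changes were -0.084 for KRT8, -0.11 for KRT18, -0.024 for KRT7 and 0.20 for KRT19. Without 500 Pa replicate 3 they were -0.016 for KRT8, -0.038 for KRT18, -0.10 for KRT7 and 0.28 for KRT19, so that the simple keratins lay near 0 or above it in both cases.

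Summed over the class, simple keratins had 11056, 19832 and 24044 CPM at 8000 Pa and 20846, 18037 and 30331 CPM at 500 Pa. The log2 ratio of the group means was -0.33, and it was -0.073 with 8000 Pa replicate 1 left out and -0.044 with 500 Pa replicate 3 left out, so that either library decides most of it.

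The basal keratins held 2 of the 4 members with the smallest p-values. KRT17 (chr17:41619441-41624842), a type I keratin of basal and appendage epithelium that is also induced on wounding, had 881, 1112 and 1635 CPM at 8000 Pa and 2408, 1178 and 3160.4 CPM at 500 Pa. The 500 Pa replicate 2 library lay inside the 8000 Pa range and the other 500 Pa libraries above it. The mean at 8000 Pa was 0.538 times that at 500 Pa, the log2 fold change was -0.89 ± 0.36 (SE; 95% interval -1.66 to -0.13), and the unadjusted p of the unpaired edgeR fit was 0.026. The blocked edgeR fit gave -0.83 ± 0.26 (SE) with a Benjamini-Hochberg adjusted p of 0.117. With the GC correction the KRT17 value was -0.59 unpaired. The blocked edgeR fit with the GC correction gave -0.53, with a Benjamini-Hochberg adjusted p of 0.202. The unpaired value was -0.52 with 500 Pa replicate 3 left out and -0.71 with 8000 Pa replicate 1 left out.

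KRT5 (chr12:52514575-52520687), the type II basal keratin, had 378, 502 and 639 CPM at 8000 Pa and 887, 819 and 598 CPM at 500 Pa. It overlapped only between 8000 Pa replicate 3 and 500 Pa replicate 3, and it was the only gene of this class for which the 500 Pa replicate 3 library was the lowest of its group. Its log2 fold change was -0.60 ± 0.27 (SE), and the unadjusted p of the unpaired edgeR fit was 0.046. KRT14 (chr17:41582279-41586921), its type I partner, had 68.4, 63.3 and 128 CPM at 8000 Pa and 130, 60.7 and 140 CPM at 500 Pa. Its 8000 Pa values all lay above 500 Pa replicate 2 and below the other 500 Pa libraries. The log2 fold change of KRT14 was -0.35 ± 0.36 (SE). KRT15 (chr17:41513743-41522529), a type I basal keratin known from the hair follicle bulge, had 5852, 9184 and 9719 CPM at 8000 Pa and 10056, 9833 and 11810.1 CPM at 500 Pa. All 3 libraries at 8000 Pa were below all 3 at 500 Pa, but the gap between 9719 and 9833 CPM was narrow. As a share of all counts, without TMM scaling, the groups overlapped for KRT15. It had 86929 of 9068926 counts at 8000 Pa replicate 2 and 179952 of 18779742 at 500 Pa replicate 1. Its log2 fold change was -0.36 ± 0.27 (SE), with a 95% interval from -0.95 to 0.24. Without 8000 Pa replicate 1 the log2 fold changes were -0.43 for KRT5, -0.20 for KRT14 and -0.16 for KRT15. Without 500 Pa replicate 3 they were -0.71 for KRT5, -0.091 for KRT14 and -0.22 for KRT15, so that KRT5 was the lowest of these 3 both times. The summed basal class had 7179, 10861 and 12122 CPM at 8000 Pa and 13480, 11890 and 15709 CPM at 500 Pa, with overlap. As a percent of all counts, without TMM scaling, it held 0.868, 1.13 and 1.13 at 8000 Pa. At 500 Pa it held 1.28, 1.25 and 1.32 percent, without overlap. The log2 ratio of the summed CPM was -0.45, which was -0.25 with 8000 Pa replicate 1 left out and -0.29 with 500 Pa replicate 3 left out.

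**Figure D4:**
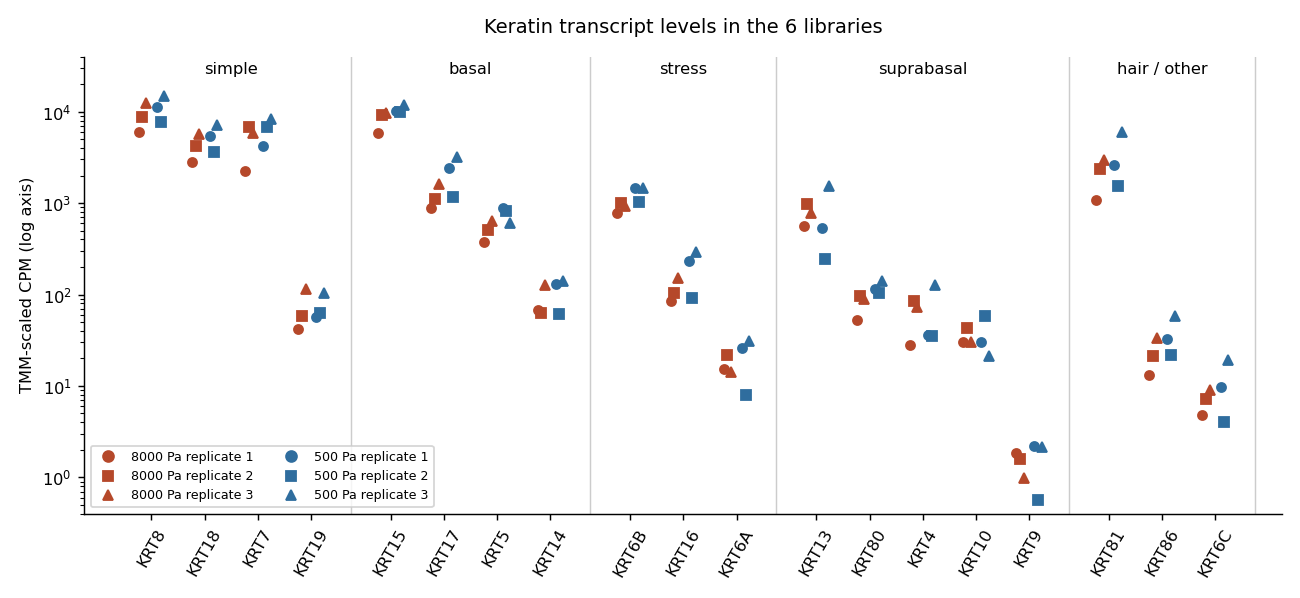
TMM-scaled CPM (log axis) of the 19 tested keratins in each library, grouped by class, with 8000 Pa in red to the left of 500 Pa in blue and replicates 1, 2 and 3 as circles, squares and triangles. The groups overlap for most genes; KRT15, KRT6B and KRT80 are those whose red symbols all lie below the blue ones.

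The stress keratins, induced in skin by injury and in hyperproliferative disease, had 2 of 3 members at an unadjusted edgeR p under 0.05. Both were lower at 8000 Pa, where the background was 0.981% of all tested genes. With the GC correction the unadjusted edgeR p was 0.067 for KRT16 and 0.066 for KRT6B. No keratin was under 0.05 without 500 Pa replicate 1, without 8000 Pa replicate 1 or without 8000 Pa replicate 2. KRT16 (chr17:41609778-41615899), the type I stress keratin, had 85.5, 104 and 151 CPM at 8000 Pa and 234, 92.7 and 293 CPM at 500 Pa. As for KRT17, the 500 Pa replicate 2 library did not share the higher level of the other 500 Pa libraries. The log2 fold change was -0.87 ± 0.38 (SE) with an unadjusted edgeR p of 0.039. The blocked edgeR fit gave -0.76 ± 0.24 (SE) with a Benjamini-Hochberg adjusted p of 0.122. With the GC correction the KRT16 value was -0.57 unpaired. The blocked edgeR fit with the GC correction gave -0.48, with a Benjamini-Hochberg adjusted p of 0.239. KRT16 was called in 1 alternative, the blocked edgeR fit without replicate 2 in both groups, at -1.21 with a Benjamini-Hochberg adjusted p of 0.0168. Over all alternatives its log2 fold change ran from -1.22 to -0.38, with -0.70 for 8000 Pa replicate 1 left out and -0.48 for 500 Pa replicate 3 left out.

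KRT6B (chr12:52446651-52452126), a type II stress keratin, had 781, 999 and 927 CPM at 8000 Pa and 1459.6, 1027 and 1475 CPM at 500 Pa. The groups did not overlap, and the nearest values were 999 CPM at 8000 Pa and 1027 CPM at 500 Pa, both replicate 2. Its log2 fold change was -0.55 ± 0.25 (SE), and the unadjusted p of the unpaired edgeR fit was 0.049. Leaving out 8000 Pa replicate 1 gave -0.46 for KRT6B, and leaving out 500 Pa replicate 3 gave -0.42. Its ratio of highest to lowest library, 1.89, was the smallest among the 19. KRT6A (chr12:52487174-52493257), its close copy, had 15.3, 21.6 and 14.3 CPM at 8000 Pa and 26.3, 7.94 and 30.9 CPM at 500 Pa. The 8000 Pa values fell within the spread of the 500 Pa values, and the log2 fold change was -0.35 ± 0.44 (SE), or -0.28 with 8000 Pa replicate 1 left out and 0.026 with 500 Pa replicate 3 left out. Reads that fit KRT6A and KRT6B equally were not resolved here. The summed stress class had 882, 1125 and 1092 CPM at 8000 Pa and 1720.0, 1127 and 1799 CPM at 500 Pa, without overlap but with 1125 beside 1127 CPM. Its log2 ratio was -0.58, and it was between -0.77 and -0.42 when each library was left out in turn.

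Among the 19 tested keratins, the suprabasal KRT13 varied most between libraries. KRT13 (chr17:41500981-41505705), the type I keratin of mucosal suprabasal layers, had 567, 980.0 and 774 CPM at 8000 Pa and 532, 246 and 1555 CPM at 500 Pa. The lowest and the highest of the 6 libraries were both at 500 Pa, 6.33-fold apart, and the log2 fold change of -0.0062 ± 0.50 (SE) was above 0 in the blocked fit, with the GC correction, without 8000 Pa replicate 1 (0.18) and without 500 Pa replicate 3 (1.03). Its type II partner KRT4 (chr12:52806549-52814551) had 28.4, 84.4 and 72.9 CPM at 8000 Pa and 35.7, 35.0 and 128 CPM at 500 Pa. KRT4 thus overlapped like KRT13, with 500 Pa replicate 3 highest, and its log2 fold change was -0.095 ± 0.50 (SE), or 0.84 without that library and 0.25 without 8000 Pa replicate 1. KRT10 (chr17:40818117-40822595), the type I keratin of epidermal suprabasal layers, had 30.6, 42.8 and 29.9 CPM at 8000 Pa and 30.5, 57.6 and 21.3 CPM at 500 Pa. Its order of libraries differed from that of KRT13, since 500 Pa replicate 2 was highest and 500 Pa replicate 3 lowest. The log2 fold change of KRT10, -0.084, was -0.0057 with 8000 Pa replicate 1 left out and -0.30 with 500 Pa replicate 3 left out. KRT1, the usual type II partner of KRT10, had 0 counts in every library.

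KRT80 (chr12:52168996-52192000), a type II keratin found in many epithelia, stood apart from the other suprabasal genes. It had 52.9, 96.4 and 88.3 CPM at 8000 Pa and 114, 103 and 142 CPM at 500 Pa, with no overlap. Its log2 fold change was -0.59 ± 0.29 (SE), with a 95% interval from -1.22 to 0.030. Leaving out 8000 Pa replicate 1 gave -0.37, and leaving out 500 Pa replicate 3 gave -0.41. KRT9 had 0.997 to 1.84 CPM at 8000 Pa and 0.559 to 2.18 CPM at 500 Pa, and its log2 fold change of -0.15 was -0.35 with 8000 Pa replicate 1 left out and 0.098 with 500 Pa replicate 3 left out. The summed suprabasal class had a log2 ratio of -0.075, a value whose sign was not stable: it was 0.76 without 500 Pa replicate 3, 0.12 without 8000 Pa replicate 1 and 0.14 with scaling by library size alone.

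Hair keratins were represented by KRT81 and KRT86, both type II keratins of the hair cortex. KRT81 (chr12:52285913-52291534) had 1081, 2387 and 2952 CPM at 8000 Pa and 2619, 1543 and 6021 CPM at 500 Pa. Its 6 libraries spanned 5.57-fold, the groups overlapped, and the log2 fold change was -0.67 ± 0.46 (SE), or -0.35 without 8000 Pa replicate 1 and 0.079 without 500 Pa replicate 3. KRT86 (chr12:52249300-52309163) had 13.1, 21.1 and 33.4 CPM at 8000 Pa and 32.4, 21.8 and 57.6 CPM at 500 Pa. It followed the same order of libraries within each stiffness as KRT81, from which part of its reads cannot be separated, and its log2 fold change was -0.72 ± 0.42 (SE), or -0.45 without 8000 Pa replicate 1 and -0.23 without 500 Pa replicate 3. The type I hair keratins KRT31, KRT33A, KRT33B, KRT34 and KRT35 had 0 counts in every library. The summed hair class had a log2 ratio of -0.67, and it was 0.075 without 500 Pa replicate 3. KRT6C, at 4.87 to 8.97 CPM at 8000 Pa and 4.02 to 19.3 CPM at 500 Pa, shares more of its sequence with other genes than any other tested keratin. The KRT6C value of -0.64 (log2 fold change) was -0.42 with 8000 Pa replicate 1 left out and 0.059 with 500 Pa replicate 3 left out.

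Some keratin ratios within a library were far steadier than the levels. KRT8 over KRT18, as a ratio of CPM per kb, was 1.70, 1.70 and 1.76 at 8000 Pa and 1.70, 1.72 and 1.70 at 500 Pa, while each gene alone spanned 2.50-fold. The ratio did not separate the stiffnesses, at 1.72 ± 0.035 for 8000 Pa and 1.70 ± 0.010 for 500 Pa (SD, n = 3 each). KRT16 over KRT17, both type I genes, was 0.0896, 0.0863 and 0.0851 at 8000 Pa and 0.0897, 0.0726 and 0.0857 at 500 Pa, so that the pair moved together across libraries. The part of the 525 exonic bases that KRT8 and KRT18 share in the steadiness of their ratio was not tested. Summed type II over type I keratins gave 1.21 ± 0.144 at 8000 Pa and 1.23 ± 0.109 at 500 Pa.

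Partner keratins of the stratified types did not keep a ratio as steady. KRT5 over KRT14 was 3.63, 5.21 and 3.27 at 8000 Pa and 4.49, 8.86 and 2.81 at 500 Pa. KRT6B over KRT16 was 6.58, 6.92 and 4.43 at 8000 Pa and 4.49, 7.98 and 3.62 at 500 Pa. KRT4 over KRT13, the mucosal pair, was 0.0330, 0.0568 and 0.0621 at 8000 Pa and 0.0442, 0.0940 and 0.0544 at 500 Pa. KRT81 over KRT86, which are both type II and not partners, was 102.6 ± 17.5 at 8000 Pa and 92.6 ± 18.8 at 500 Pa. Of the 15 ratios computed, KRT17 over KRT14 did not overlap: it was 14.1, 19.3 and 14.0 at 8000 Pa and 20.3, 21.3 and 24.8 at 500 Pa. KRT17 and KRT14 both share part of their sequence with other genes, and the part of this in their ratio was not tested. With 3 libraries against 3, a two-sided exact permutation test of a single ratio cannot go below p = 0.1.

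**Figure D5:**
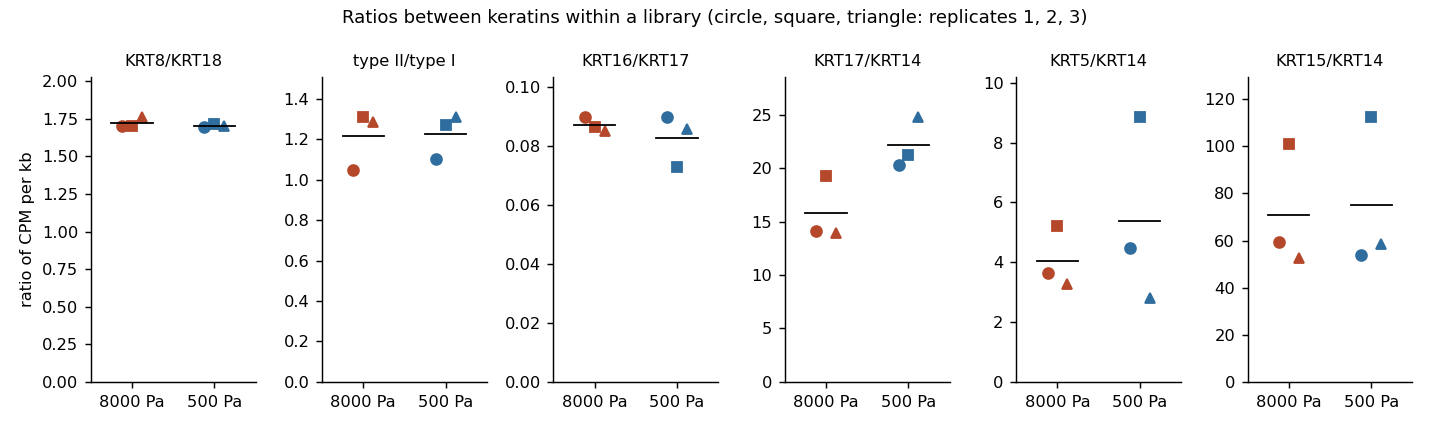
Ratios of CPM per kb between keratins within each library, 8000 Pa left of 500 Pa, with bars at the group means and axes from 0. KRT8/KRT18 is flat at 1.70 to 1.76 in all 6 libraries, KRT5/KRT14 and KRT15/KRT14 are highest in replicate 2 of both stiffnesses, and KRT17/KRT14 is lower in each library at 8000 Pa than in each at 500 Pa.

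Genes that anchor or link keratin filaments did not pass the test. Of 17 listed, 16 were tested and 0 were called by edgeR in either fit. Of all tested genes 0% were called unpaired and 0.53% blocked, which is also the background for the lists that follow. Of the 16 tested, 12 had a log2 fold change above 0, against 5901 of all 11517 tested genes. The median of the 16 was 0.31 beside 0.0093 for all tested genes. The highest in CPM was JUP, plakoglobin of the desmosome, at 694 ± 262 CPM at 8000 Pa and 927 ± 234 CPM at 500 Pa (SD, n = 3 each). ITGB4, the hemidesmosomal integrin chain that binds plectin, had 505 ± 204 CPM at 8000 Pa and 724 ± 82.9 CPM at 500 Pa, the smallest unpaired p among those lower. COL17A1, the transmembrane collagen of hemidesmosomes, had the smallest unpaired p among those higher, with 7.30 ± 1.31 CPM at 8000 Pa and 4.39 ± 1.88 CPM at 500 Pa.

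Other intermediate filament genes were mostly low. Of 16 listed, 6 were tested and 0 called in either edgeR fit. LMNA, the A-type lamin gene of the nuclear lamina, had 1077 ± 485 CPM at 8000 Pa and 1249 ± 309 CPM at 500 Pa. LMNB1, a B-type lamin, had 143 ± 39.6 CPM at 8000 Pa and 87.5 ± 53.3 CPM at 500 Pa, and its Benjamini-Hochberg adjusted p in the blocked edgeR fit was 0.0661. VIM, the mesenchymal filament gene, had 27.1 ± 9.85 CPM at 8000 Pa and 30.1 ± 1.91 CPM at 500 Pa. NES, NEFL, NEFM, NEFH, INA, PRPH and SYNC had 0 counts throughout.

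Of 8 keratin chaperones and binding proteins, 0 were called by edgeR in either fit and their median log2 fold change was -0.085. HSPA8, a constitutive chaperone, had 3320 ± 292 CPM at 8000 Pa and 3533 ± 330 CPM at 500 Pa. SFN, the 14-3-3 sigma protein that binds keratins such as KRT17, had 187 ± 65.7 CPM at 8000 Pa and 282 ± 72.6 CPM at 500 Pa, the smallest p of the list. DNAJB6, a co-chaperone of keratins, had the smallest p among those higher, with 80.2 ± 18.6 CPM at 8000 Pa and 73.6 ± 13.2 CPM at 500 Pa. Cornified envelope genes, which in epidermis are made with the suprabasal keratins, were tested for 5 of 10 and called for 0 by edgeR in either fit, with a median of -0.34. CNFN, cornifelin, had 37.8 ± 18.7 CPM at 8000 Pa and 44.4 ± 5.54 CPM at 500 Pa. SPRR1B, a cross-linked envelope precursor, had 32.1 ± 3.74 CPM at 8000 Pa and 49.0 ± 34.3 CPM at 500 Pa, and LOR and FLG had 0 counts in every library.

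Of 14 transcription factors known to act on keratin genes, 1 passed in the blocked edgeR fits and 0 in the unpaired one. Over all 11517 tested genes, 61 (0.53%) passed with the block, 78 with the block and the GC correction, and 0 unpaired. GRHL3, a grainyhead factor of epidermal differentiation, had 11.5, 16.3 and 14.4 CPM at 8000 Pa and 3.13, 7.27 and 6.57 CPM at 500 Pa. All 3 libraries at 8000 Pa were higher than all 3 at 500 Pa, and the blocked edgeR fit gave 1.39 on the log2 scale with a Benjamini-Hochberg adjusted p of 0.0107, or 0.0093 with the block and the GC correction. The unpaired edgeR adjusted p was 1.00, or 0.63 with the GC correction. TP63, the p53-family regulator of basal keratins, had 12.1, 5.60 and 5.08 CPM at 8000 Pa and 2.74, 5.25 and 3.00 CPM at 500 Pa, with 500 Pa replicate 2 between the lowest and the next value at 8000 Pa and a blocked edgeR adjusted p of 0.290. The most abundant factor, ELF3, had 787 ± 241 CPM at 8000 Pa and 993 ± 330 CPM at 500 Pa, the smallest p among those lower. The median of the 14 was 0.077.

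Promoters were searched for the p53-family half-site consensus, the sequence that TP63 and its relatives bind, since this family includes the best known regulator of the basal keratins. The RefSeq promoter table (GRCh38.p14) matched 34 of the 55 keratins by symbol, and in the 250 bases before the start 7 of the 34 held a half-site, against 5.57% of 35116 promoters of the same length. The consensus reads the same on both strands. Of the 19 tested keratins the table holds KRT4, KRT5, KRT8, KRT9 and KRT10, and KRT6A, KRT6B, KRT6C, KRT7, KRT13, KRT14, KRT15, KRT16, KRT17, KRT18, KRT19, KRT80, KRT81 and KRT86 were not searched here. Of the 7 with a half-site, KRT5, KRT8 and KRT10 were among the tested genes, and KRT2, KRT20, KRT25 and KRT76 had at most 3 counts. The 3 upstream sequences follow, 5′ to 3′ on the minus strand on which these genes lie, at chr12:52520395-52520644 for KRT5, chr12:52926470-52926719 for KRT8 and chr17:40822615-40822864 for KRT10, with the half-site in capitals.
KRT5: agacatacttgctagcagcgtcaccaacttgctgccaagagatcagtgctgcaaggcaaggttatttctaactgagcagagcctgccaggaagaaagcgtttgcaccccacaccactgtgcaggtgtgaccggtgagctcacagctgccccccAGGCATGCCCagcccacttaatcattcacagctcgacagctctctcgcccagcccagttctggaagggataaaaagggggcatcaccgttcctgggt
KRT8: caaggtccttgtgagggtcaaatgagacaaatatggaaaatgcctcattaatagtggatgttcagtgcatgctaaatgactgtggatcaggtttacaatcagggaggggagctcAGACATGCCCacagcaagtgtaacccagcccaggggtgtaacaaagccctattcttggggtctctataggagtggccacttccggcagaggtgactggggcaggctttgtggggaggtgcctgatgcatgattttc
KRT10: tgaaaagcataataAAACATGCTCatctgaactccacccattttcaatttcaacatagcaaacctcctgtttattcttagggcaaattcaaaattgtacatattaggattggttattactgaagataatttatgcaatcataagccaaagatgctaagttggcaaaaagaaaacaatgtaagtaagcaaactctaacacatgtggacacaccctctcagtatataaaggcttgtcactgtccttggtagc
The half-sites began 97, 136 and 236 bases before the RefSeq starts listed for KRT5, KRT8 and KRT10. A match describes these letters and is not evidence of binding. KRT8 has 17 annotated transcript starts in GENCODE 29, and the sequence shown lies before 1 of them. Promoters at its other starts were not searched, and which start was used in these cells was not measured. Of these 3 genes KRT5 had the lowest log2 fold change (-0.60), beside -0.31 for KRT8 and -0.084 for KRT10, and none passed the test. On both strands, the TATAAA box was found in 10.7% of all promoters, the AP-1 motif TGANTCA in 6.57% and the GGGCGG box in 42.6%; KRT10 held TATAAA, apart from its half-site, and KRT5 and KRT8 held none of these 3 motifs.

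Epithelial markers were high in both groups. The 5 epithelial markers (EPCAM, CDH1, CDH3, CLDN7 and ESRP1) summed to 1589 to 1884 CPM at 8000 Pa and 1580 to 2098 CPM at 500 Pa, and 0 were called. Of the luminal hormone receptors, PGR had 0 counts and ESR1 had 1.17 ± 0.286 CPM at 8000 Pa and 1.12 ± 0.736 CPM at 500 Pa. The leukocyte genes PTPRC and CD3E and the fibroblast genes COL1A2 and COL3A1 had 0 counts in every library, while COL1A1, CD14 and CD68 were tested and 0 of them called. Of 5 endothelial markers, PECAM1 and CDH5 rose at 8000 Pa in the blocked edgeR fit, PECAM1 to 219 ± 19.7 CPM against 111 ± 30.4 CPM at 500 Pa and CDH5 to 10.4 ± 5.72 CPM against 2.58 ± 1.27 CPM at 500 Pa. Their Benjamini-Hochberg adjusted p in that fit was 0.0054 and 0.00031, and in the unpaired edgeR fit it was 1.00. The blocked edgeR fit called 0.53% of all tested genes. ESAM, the other tested marker of the list, had 6.14 ± 2.09 CPM at 8000 Pa and 5.98 ± 1.68 CPM at 500 Pa and was not called. VWF and KDR, the markers of the list with too few counts to be tested, were at 0.133 and 0.261 CPM at 8000 Pa. At 500 Pa they were at 0.143 and 0.0373 CPM, and they had at most 4 counts in any library.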

How the data were processed

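For each of the 6 libraries the authors deposited raw counts per gene symbol, whole numbers that are not normalized. HISAT2 2.1.2, HTSeq 0.11.4 and the GRCh38 build are named in the submitters' processing notes. The annotation release, the strand setting and the rule for reads with several matches were not given in the sources used. The deposited files also hold TMM-scaled log2 values per the file headers, which were not used.

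The test across genes, from 26484 listed, used edgeR 4.0.16 under R 4.3.3 (limma 3.58.1, DESeq2 1.42.0): filterByExpr (minimum count 10, total 15) left 11517 genes. Libraries were scaled by TMM, and stiffness alone was tested by the quasi-likelihood F test with Benjamini-Hochberg adjustment over all tested genes at an FDR of 0.05. Log2 fold changes are 8000 Pa over 500 Pa, and CPM values are TMM-scaled. Lengths, GC content and positions come from GENCODE 29 (95.5% of tested genes), using the shortest principal transcript. The alternatives were the replicate number as a block, a GC correction per library, other scalings, no filter, DESeq2, limma-voom and leaving out libraries. Same-numbered libraries deviated together across genes (r = 0.409, 0.184 and 0.516 for replicates 1, 2 and 3, each above the 0.1 required; 500 Pa replicate 2 reached 0.199 with 8000 Pa replicate 1), so the numbers in the labels were taken to pair them. In the blocked fit all genes share 1 estimated trend of the spread. No 2 libraries agreed within sampling noise (chi-square per degree of freedom at least 11.7). The p-values of the blocked edgeR fit rest on the trend shared by all genes and do not measure each gene's own spread between replicates. Those of the unpaired fits measure the spread between biological replicates as labelled. Floors and shares cover counting error only. The edgeR steps were run on simulated counts that held no GC trend between libraries, so their behaviour under such a trend was not tested. Every tested keratin is named, with values in each library at a mean of at least 10 CPM. From the other lists the text takes the gene of highest CPM and those of smallest p. VIM, TP63 and the other genes named beyond this rule were chosen after their values were seen. The members and lists were chosen with earlier results of these data known.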

Additional observations from a re-analysis of the deposited data

How the results depend on the processing

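Leaving out 1 library gave 0 keratins called and 0 to 1 genes called over all tested genes. Leaving out 1 same-numbered pair in the blocked fit gave 0 to 1 keratins, the 1 being KRT16 without replicate 2, and 38, 81 and 12 genes over all without replicates 1, 2 and 3. With the replicate block 61 genes were called over all, with the block and the GC correction 78, without a filter 8, with DESeq2 7 and with DESeq2 and the block 42, while keratins called stayed at 0 in each. The block, whose pairing rests on the labels' numbers, changed no keratin call. Of the recomputed log2 fold changes of the 19 keratins, 293 kept their direction and side of the threshold and 48 changed sign.

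Log2 fold changes that turned above 0 were, for KRT10, 0.012 with the block, 0.0016 with block and GC correction, 0.030 with library size alone, 0.0075 with DESeq2 and the block and 0.010 with limma-voom. For KRT13 they were 0.34, 0.56, 0.23, 0.33 and 0.37 in that order and 0.28 with the GC correction alone. For KRT4 they were 0.022, 0.14, 0.094, 0.019 and 0.082 in that order and 0.018 with the GC correction. For KRT19 they were 0.16 with the GC correction, 0.14 with block and GC correction and 0.055 with library size alone, and for KRT9 0.068 with block and GC correction and 0.072 with library size alone. Leaving out each library in turn gave log2 fold changes of -0.30 to 0.40 for KRT10, -0.43 to 1.03 for KRT13, -0.59 to 0.28 for KRT19, -0.42 to 0.84 for KRT4, -0.75 to 0.026 for KRT6A, -1.04 to 0.059 for KRT6C, -1.02 to 0.079 for KRT81 and -0.55 to 0.16 for KRT9. Leaving out each pair in turn in the blocked fit gave -0.16 to 0.24 for KRT10, -0.46 to 1.09 for KRT13, -0.24 to 0.015 for KRT19, -0.58 to 0.52 for KRT4, -0.94 to 0.34 for KRT6A and -0.62 to 0.50 for KRT9, with 0.51 for KRT13, 0.13 for KRT6A and 0.11 for KRT9 without replicate 1. The summed suprabasal class ran from -0.43 to 0.76 with libraries left out and was 0.14 with library size alone. Without 500 Pa replicate 3 the hair class was 0.075 and the other keratins were 0.45. The cause was not tested.

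KRT9, with 107 counts in all, and the 16 untested keratins with few counts are those with the least depth.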
